A study of Mus musculus with 16 samples.

Results

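Type I interferon-stimulated antiviral genes were followed in macrophages and monocytes that had infiltrated a transplanted sarcoma in mice with or without C3. The group was defined by 37 gene symbols, and its members were the rows of the deposited matrix whose identifier carries one of these symbols in the authors' tables of differential expression. All 37 symbols had a row, out of 30819 genes in the matrix, and they made up 38 rows because Slfn5 had a second identifier with almost no reads. Of the 37 members, 36 passed the filter on low values and were tested in each comparison. Ifi44l was not, and the authors' deposited table lists it with a base mean of 0.432 reads.

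MN/MCA1 cells, a transplantable mouse sarcoma line, were injected under the skin of mice labelled C57BL/6J. The mice were wild type or C3-/-, called knockout here, and C3 is the complement protein whose cleavage all activation routes share. The 4 groups were macrophages and monocytes from wild-type mice 1 to 4 and from knockout mice 6 to 9, collected 21 days after injection, with 4 libraries per group and both cell types taken from each mouse. Both sorted populations were CD45+, CD11b+, Ly6G- and CD11c-. Macrophages were F4/80+ and Ly6C-, and monocytes were Ly6C+ and F4/80-. The sources used here give neither the age and sex of the mice nor which part of C3 was removed, and the labels name no treatment in either genotype.

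Reads recovered from the deposited log2 values ran from 18686231 to 29026723 per library. Normalized reads, used below for levels, are these reads divided by a size factor per library, and means are given ± SD over the 4 libraries of a group. C3 itself had 3262 to 4830.1 normalized reads in wild-type macrophages against 1076 to 1390.3 in knockout macrophages, and 14608 to 16132 in wild-type monocytes against 4624 to 5204 in knockout monocytes, so the genotypes did not overlap in either cell type and reads of C3 were still present in the knockout. Summed normalized reads of the 8 macrophage markers were 633419 to 934513 in the macrophage libraries and 189408 to 269147 in the monocyte libraries. The sum of the 7 monocyte markers was 146571 to 197871 in monocytes and 11488 to 20141 in macrophages, in accord with the labels.

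Type I interferons signal through a receptor made of IFNAR1 and IFNAR2, whose kinases activate signal transducers. With IRF9 these form a complex that binds the interferon-stimulated response element in the promoters of its target genes. The induced proteins bind or cut foreign RNA, hold back virus entry and budding, sense nucleic acids, or, like USP18, turn the signal down again. Macrophages and monocytes express many of these genes at a tonic level without infection.

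The promoters of several members hold matches to this element, and stretches are shown for a selection of the members. The sequences are RefSeq windows on GRCm38.p6 from 250 bases before to 50 bases after the gene's start, of which a stretch before the start is printed 5′ to 3′ on the gene's own strand, with matches to the core of the element in capitals. The core searched was GAAA, any 2 bases and GAAA again, on either strand, which reads TTTC, any 2 bases and TTTC when it lies on the other one. Ifit3 and Ifit3b are neighbouring copies and share an identical run of 169 bases in their windows of 300 bases. Oas1a and Oas1g share a run of 73 bases.
Isg15: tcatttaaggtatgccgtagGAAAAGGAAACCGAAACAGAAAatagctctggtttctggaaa
Ifit1: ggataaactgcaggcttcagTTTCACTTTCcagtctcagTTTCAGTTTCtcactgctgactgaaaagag
Ifit3: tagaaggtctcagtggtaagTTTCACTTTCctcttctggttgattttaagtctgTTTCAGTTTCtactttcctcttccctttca
Ifit3b: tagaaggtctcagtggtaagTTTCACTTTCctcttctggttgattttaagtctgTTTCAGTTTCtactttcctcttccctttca
Oas1a: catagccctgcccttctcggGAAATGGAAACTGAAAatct
Oas1g: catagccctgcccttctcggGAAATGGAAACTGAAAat
Bst2: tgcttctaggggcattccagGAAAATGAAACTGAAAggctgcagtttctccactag
Rsad2: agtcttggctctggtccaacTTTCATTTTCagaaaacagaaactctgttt
Ifi205: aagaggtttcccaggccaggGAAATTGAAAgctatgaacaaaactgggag
Ifi44: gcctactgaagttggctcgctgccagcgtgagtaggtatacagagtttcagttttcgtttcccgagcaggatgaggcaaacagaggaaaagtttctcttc
Oasl1: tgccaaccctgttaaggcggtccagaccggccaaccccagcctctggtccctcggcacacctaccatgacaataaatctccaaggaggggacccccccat
These stretches lie at chr4:156200855-156200916 (Isg15), chr19:34640765-34640833 (Ifit1), chr19:34583353-34583436 (Ifit3), chr19:34607749-34607832 (Ifit3b), chr5:120907526-120907565 (Oas1a), chr5:120887614-120887651 (Oas1g), chr8:71537567-71537622 (Bst2), chr12:26456543-26456592 (Rsad2), chr1:174031860-174031909 (Ifi205), chr3:151749911-151750010 (Ifi44) and chr5:114923140-114923239 (Oasl1). The genes of the Ifit copies lie on the plus strand of chromosome 19, as does Ifit1, and Oasl1 is also on the plus strand. The genes of Isg15, Oas1a, Oas1g, Bst2, Rsad2, Ifi205 and Ifi44 are on the minus strand. In Isg15 3 overlapping matches form 1 run, in Oas1a, Oas1g and Bst2 2 do, and in Ifit1, Ifit3 and Ifit3b 2 matches stand apart. Ifi44 and Oasl1 are shown as members without these exact letters in the window.

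Of the 37 members, 28 had a window in the table. Mx1, Mx2, Oas2, Usp18, Dhx58, Zbp1, Ifi204, Rtp4 and Parp14 had no entry. The core was found in the windows of 15 of the 28 members (53.6%), against 3.99% of 27025 genes with a window of the same length. The gamma-activated sequence, TTC and GAA with any 3 bases between, searched in the same way on both strands, was found in 4 of 28 members (14.3%) and in 9.55% of all genes. These are matches of letters and not measured binding sites. Cmpk2, Oasl2 and Xaf1, which are named below, had windows without the core. Among tested members with a window, 6 of 15 with the core and 4 of 12 without it were called lower in knockout macrophages, a comparison given below. No test was made of this split.

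The members were compared first between the cell types. Monocytes carried more RNA of nearly every member than macrophages, in both genotypes. In wild-type mice 34 of 36 members were lower in macrophages and 2 were higher, and all 36 passed limma's test at an adjusted p under 0.05, where 63.4% of all genes tested did (31.7% lower and 31.7% higher). In knockout mice 34 were lower and 1 higher, against 60.5% of all genes called (29.6% lower and 31% higher). The libraries of the cell types did not overlap for 35 members in each genotype, against 57.6% of all genes in wild type and 55.2% in knockout. The median member differed by -0.94 (macrophages minus monocytes, deposited log2 scale) in wild type and by -1.22 in knockout, and the median of all genes tested was close to 0. These are bulk libraries, in which fewer cells carrying a transcript and less of it per cell cannot be told apart.

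Ifi205, a p200 protein of the family that binds nucleic acids, had the largest difference. Its normalized reads were 894, 912, 718 and 507 in the macrophages of wild-type mice 1 to 4 and 5809.5, 4578, 4466 and 3556 in their monocytes. In knockout mice 6 to 9 they were 473, 645, 703 and 453 in macrophages and 6051, 4553, 6490.1 and 6283 in monocytes. Every monocyte library was thus several times above every macrophage library, and mean reads were 6.07-fold lower in macrophages of wild-type mice (log2 difference -1.86 ± 0.14 SE, limma adjusted p = 3.196e-06) and 10.3-fold lower in knockout mice (-2.38 ± 0.11, limma adjusted p = 1.918e-08). Part of its sequence is shared with Ifi211, which holds 18.5% of its 50-base windows, so some reads may have been assigned to either gene.

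Rsad2 encodes viperin, which makes a chain-terminating nucleotide, and lies next to Cmpk2, a mitochondrial nucleotide kinase gene, on chromosome 12 (26442746 to 26456452 on the minus strand and 26469204 to 26479837 on the plus strand). Rsad2 had 3888, 4169, 3648 and 2625 normalized reads in wild-type macrophages and 20582, 17363, 16511 and 12149 in wild-type monocytes. Its knockout values were 3014, 3709.5, 4068 and 2439 in macrophages and 26218, 22075, 22066 and 21383 in monocytes. The cell types did not overlap, and mean Rsad2 reads in macrophages were 4.65-fold lower in wild type and 6.93-fold lower in knockout.

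Cmpk2 had 3063, 3136, 2634 and 1864 normalized reads in wild-type macrophages and 11347, 9599, 9141 and 7117 in wild-type monocytes. In knockout mice it had 1975, 2427, 2180.3 and 1759.5 in macrophages and 13054, 11098, 11404 and 11147 in monocytes. The 2 neighbours thus shared the same order of groups, with Cmpk2 3.48-fold lower in macrophages of wild-type mice and 5.6-fold lower in those of knockout mice.

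Isg20, an RNA exonuclease, had 497, 549, 485 and 387 normalized reads in wild-type macrophages and 2990.0, 2259, 2758 and 2079 in wild-type monocytes, a 5.26-fold lower mean in macrophages. Its knockout libraries gave 378, 422, 440.5 and 355 in macrophages and 3287, 2210.2, 2742 and 2456 in monocytes, a 6.7-fold lower mean. Mx1, a gene of the dynamin-like GTPase family, had 1083, 1223, 966 and 779 in wild-type macrophages and 4598, 3830.4, 4129 and 3039 in wild-type monocytes. In knockout mice Mx1 had 862, 904, 1099 and 867 in macrophages and 5476, 4299, 4486 and 5692 in monocytes. For both genes the 2 cell types were far apart in either genotype.

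Ifit1 binds viral RNA that lacks the cap methylation of host messages. It had 3079, 3194, 2805 and 2164 normalized reads in wild-type macrophages and 11976, 10068, 10558 and 8352 in wild-type monocytes. In knockout mice the values were 1969, 2289.8, 1973 and 1734 in macrophages and 11583, 8964, 9087 and 8728 in monocytes. Mean Ifit1 reads were 3.64-fold and 4.82-fold lower in macrophages of wild-type and knockout mice. Oas3, a synthetase of the 2-5A messenger that activates RNase L, had 1298, 1388, 1548 and 961 normalized reads in wild-type macrophages and 5051, 4909, 5045 and 3791 in wild-type monocytes. Its mean was 3.62-fold lower in wild-type macrophages.

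Across all 36 members the median ratio was 2.49-fold lower in macrophages of wild-type mice and 3.29-fold lower in those of knockout mice. The IFIT genes (median log2 difference -1.01 in wild type and -1.54 in knockout) and the Mx genes (-1.29 and -1.66) were far below monocytes, and the RNA helicase genes Ddx58, Ifih1, Dhx58 and Ddx60, whose products sense viral RNA or assist the sensors, differed less than these families (-0.66 and -0.80). The exceptions went in the other direction. Ifi44, a gene of uncertain function, was 1.96-fold higher in macrophages of wild-type mice and 1.72-fold higher in those of knockout mice. Bst2, which encodes tetherin, a membrane protein that holds budding viruses on the cell, was 1.32-fold higher in wild-type macrophages (limma adjusted p = 0.001329) and did not pass the test in knockout mice (log2 difference 0.06, limma adjusted p = 0.4143).

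**Figure D1:**
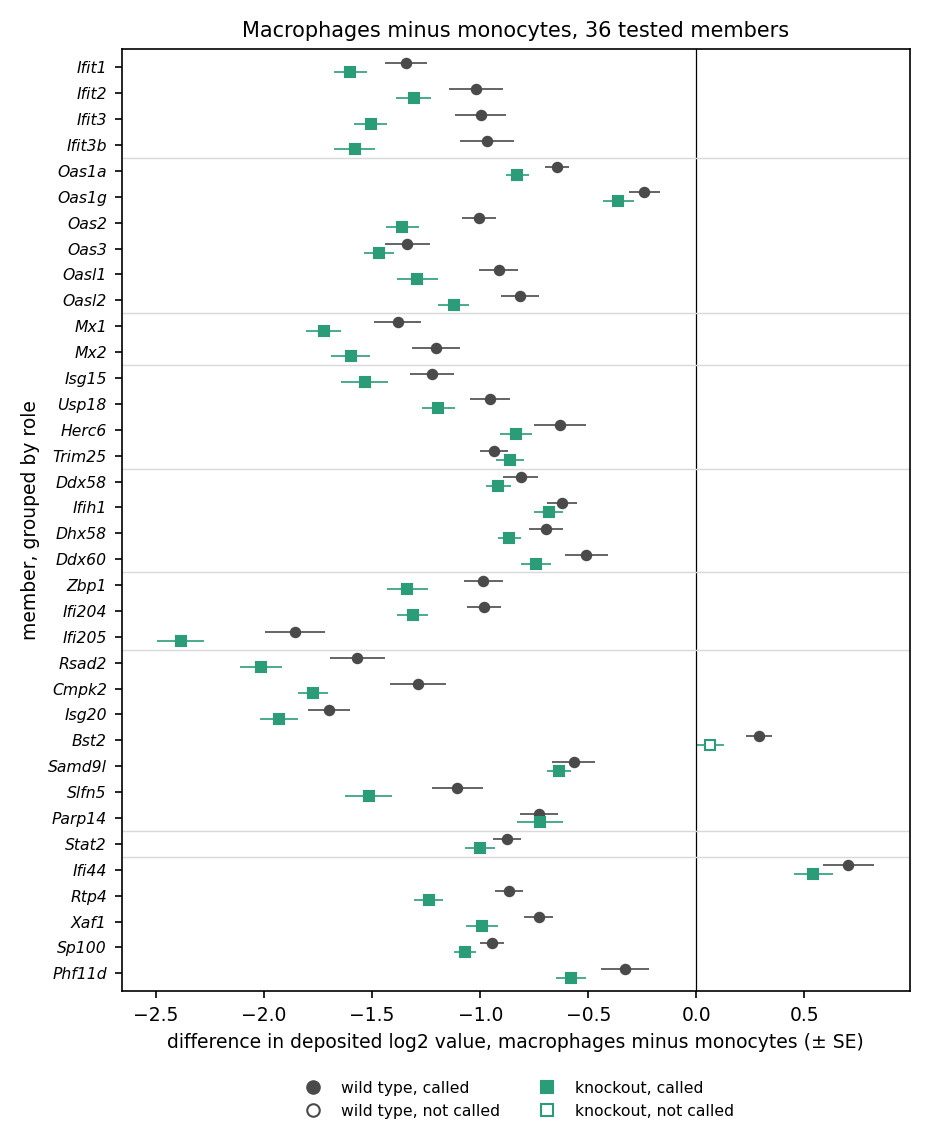
Difference in deposited log2 value between macrophages and monocytes for the 36 tested members, ordered by role, in wild-type mice (circles) and knockout mice (squares). Bars are standard errors from limma and filled symbols passed an adjusted p under 0.05. Only Ifi44 and Bst2 lie to the right of 0, and Ifi205 lies farthest to the left at -1.86 in wild type and -2.38 in knockout.

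Per kilobase of exon, the order of members differed between the cell types. In wild-type monocytes Isg15, the ubiquitin-like modifier, stood highest with 6203 normalized reads per kilobase, followed by Bst2 (4630.1), Ifit3 (4611) and Ifit2 (3996), and Ifi44 stood lowest (78.3). In wild-type macrophages Bst2 stood highest (6102), ahead of Isg15 (1916), Ifit3 (1765) and Oas1a (1538), and Mx2 stood lowest (64.3). Bst2 and Ifit3 in wild-type monocytes were closer than their spread.

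The second comparison, knockout against wild type in macrophages, asks whether host C3 bears on the program in these cells. Loss of C3 went with lower levels. Of the 36 members 12 were called lower and none higher, against 5.7% of all genes called, 3.13% lower and 2.57% higher. The libraries did not overlap for 12 members, each lower in knockout, against 7.03% of all genes lower in this way. In all, 33 members had a difference below 0, as did 49.1% of all genes, and the median member differed by -0.23 on the deposited scale. Mean normalized reads of the median member were 1.28-fold lower in knockout macrophages, so the changes were small. The deposited scale draws differences together. Over the 36 tested members the mean differed by -0.235 on that scale and by -0.344 on log2(normalized reads + 1).

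The OAS family held the largest share of the calls, with 5 of 6 members lower. Proteins of this family bind RNA, and several make the 2-5A messenger. Oasl1 had 2611, 2947, 2414 and 2050.4 normalized reads in wild-type mice 1 to 4 and 1376, 1836, 1829.8 and 1172 in knockout mice 6 to 9. No knockout library reached the lowest wild-type library, and the mean was 1.61-fold lower (log2 difference -0.48 ± 0.11 SE, limma adjusted p = 0.03606).

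Oasl2 had 6319, 6169, 5736 and 4519 normalized reads in wild-type macrophages and 3742, 4233, 4515 and 3250.4 in knockout macrophages. The groups only just parted, between wild-type mouse 4 and knockout mouse 8, and the mean was 1.44-fold lower (limma adjusted p = 0.03527). Oas2 had 1794, 1633, 1759.9 and 1437 against 1253, 1219.8, 1225 and 1157, a clear gap with little spread among the knockout mice, and was 1.36-fold lower (-0.30 ± 0.05, limma adjusted p = 0.00514). Oas1a and Oas1g were also called (-0.21 and -0.27), but 57.6% of the 50-base windows of Oas1a occur in Oas1g, so reads of these 2 genes may have been exchanged. Oas3 was not called (-0.20, limma adjusted p = 0.283).

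Of the 4 IFIT genes, Ifit3b and Ifit1 were called. Ifit3b had 789.6, 742, 754 and 505 normalized reads in wild-type macrophages and 393, 454, 451 and 339 in knockout macrophages. All 4 knockout libraries lay below all wild-type libraries, and the mean was 1.71-fold lower, the largest change among the called members (-0.51 ± 0.10, limma adjusted p = 0.01326). Its copy Ifit3, with which it shares 44.5% of its 50-base windows and the promoter run shown above, had 3581, 3407, 3093 and 2239.7 reads against 2109, 2209.5, 2217 and 1781. Ifit3 did not overlap between the genotypes either, at 1.48-fold lower, and stood just outside the threshold (limma adjusted p = 0.05112). Ifit1, whose values are given above, was 1.41-fold lower (limma adjusted p = 0.0479), with knockout mouse 7 above wild-type mouse 4.

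Among the remaining groups, Ifi44, Rtp4 and Xaf1 were called in the set of other induced genes. Ifi44 had 989, 1163, 815 and 805 normalized reads in wild-type macrophages and 566, 630.0, 794 and 587 in knockout macrophages, so that knockout mouse 8 lay just under wild-type mouse 4 and the mean was 1.46-fold lower (limma adjusted p = 0.04621). Rtp4, a chaperone-like protein of the Golgi and an interferon-induced regulator of the response, had 2878, 2539.8, 2338 and 2034 against 1695, 1935, 1872 and 1608. It did not overlap and was 1.38-fold lower (-0.31 ± 0.07, limma adjusted p = 0.02534). Xaf1 differed by -0.27.

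Bst2 was the 1 called member of the 7 effectors and, like Oas2, was singled out here after its values were seen. It had 5616, 5889, 5480.1 and 5053 normalized reads in wild-type macrophages and 3912, 4235, 4641 and 4216 in knockout macrophages. The knockout libraries lay near the monocyte level (4181 ± 472 in wild type and 4003 ± 454 in knockout), and the mean was 1.3-fold lower than in wild-type macrophages (-0.27 ± 0.05, limma adjusted p = 0.007115). Ddx60 was the 1 called RNA helicase gene (-0.22). No member of the Mx pair, the ISG15 system or the nucleic acid sensors was called, although Isg15 and its protease gene Usp18 differed by -0.34 (limma adjusted p = 0.0644) and -0.32 (limma adjusted p = 0.05705). Samd9l, Stat2 and the ubiquitin ligase gene Trim25 were the 3 members not below 0, at 0.00, 0.01 and 0.02.

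**Figure D2:**
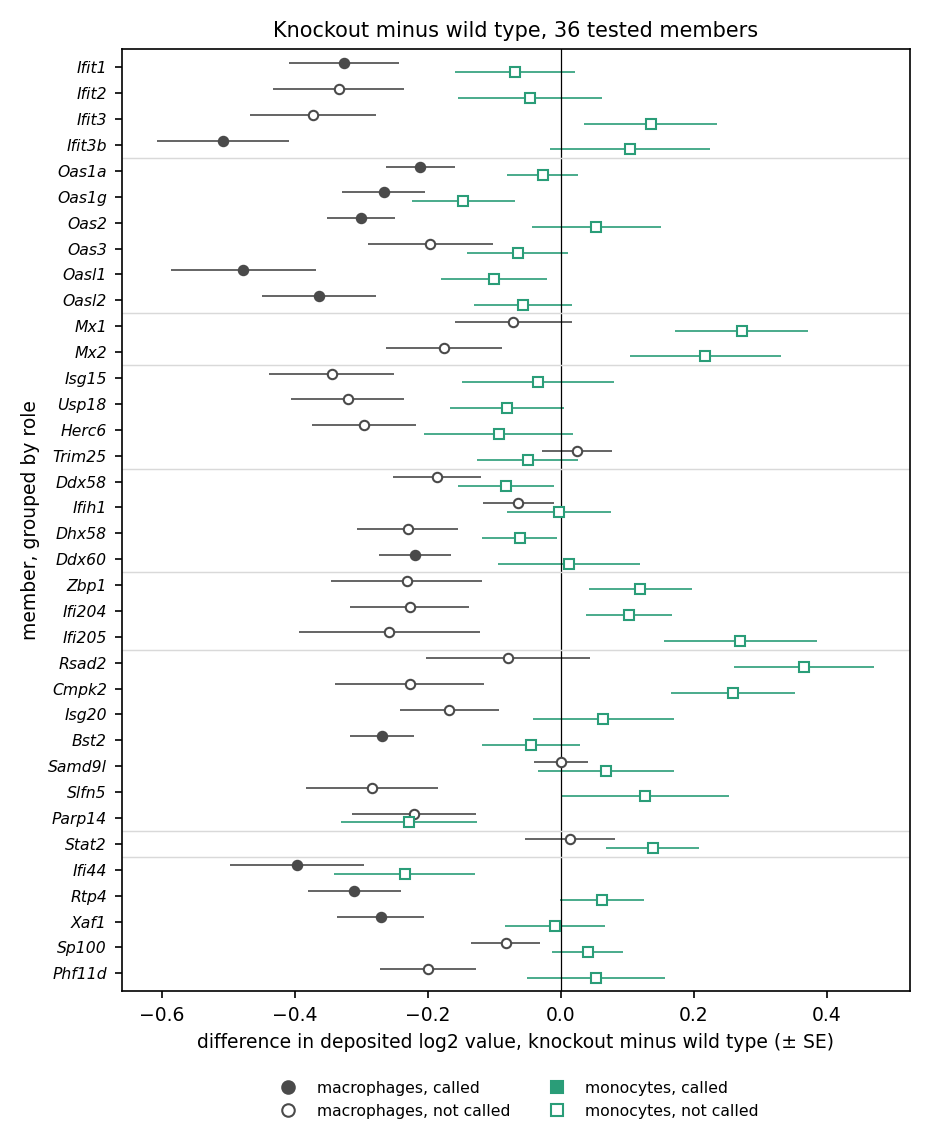
Difference in deposited log2 value between knockout and wild type for the 36 tested members, ordered by role, in macrophages (circles) and monocytes (squares). Bars are standard errors from limma and filled symbols passed an adjusted p under 0.05. In macrophages 33 of 36 circles lie left of 0 and 12 are filled, and in monocytes the squares spread to both sides of 0 with none filled.

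Which members were called in macrophages depended on the libraries. Only Ifit3b, Oas2 and Bst2 kept the call in all 17 alternatives tried. Leaving out wild-type mouse 1, wild-type mouse 2, knockout mouse 6 or knockout mouse 9 left 3 calls each, leaving out wild-type mouse 3 left 5, leaving out knockout mouse 7 left 8, leaving out knockout mouse 8 left 12, and leaving out wild-type mouse 4 gave 22. The share of all genes called in these fits was 3.67% to 5.26%, and 4.24% without wild-type mouse 4. The called count was 4 without a filter on low values and 3 without trend and robust estimation, where 1.65% and 4.17% of all genes were called. By the authors' own test, as the authors' deposited table gives it, the count was 16, all lower, against 6.07% of all genes called (3.33% lower and 2.74% higher).

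Wild-type mouse 4 stood apart within its group. Its macrophage library was the lowest wild-type library for 34 of 36 members, and its monocyte library for 35 of 36. Its recovered reads, 25794744 in macrophages and 22354904 in monocytes, were within the range of the other libraries. The median coefficient of variation of the members in wild-type macrophages was 15.9%, against 9.91% for all genes. In knockout macrophages it was 10.4%, against 11.1% for all genes.

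Markers of other cells moved with the genotype in the macrophage libraries, and their part in the result was not tested. The 4 endothelial markers summed to 290 to 469 normalized reads in wild-type and 846 to 991 in knockout macrophages, with 1 of 3 tested called higher. This was Kdr (271.6 ± 90.3 against 794.2 ± 63.2), while Pecam1 had 46.2 to 96.0 against 47.0 to 159.9 and Cdh5 20.8 ± 8.8 against 16.8 ± 10.4. The 4 red blood cell markers with reads summed to 428 to 1272 in wild type and 145 to 242 in knockout, with all 4 called lower. The 7 conventional dendritic cell markers summed to 124 to 187 in wild type and 223 to 259.7 in knockout, and the 4 B cell markers to 57.5 to 98.8 and 135 to 199.6. The 6 of 8 plasmacytoid dendritic cell markers with reads, from cells known to produce type I interferon, summed to 1391 to 2657 and 2531 to 3110.5, with none of 3 tested called. Nearly all of that sum was Ptprs (1929 ± 533 against 2749 ± 278), and Cox6a2 (65.9 ± 11.9 against 54.4 ± 4.7), Ccr9 (9.9 ± 7.8 against 7.8 ± 7.3) and Siglech (6.7 ± 1.1 against 1.9 ± 1.7) had lower means in knockout. Macrophage markers summed to 792871 to 934513 in wild type and 633419 to 761664 in knockout macrophages, with 3 of 8 called lower, and monocyte markers to 11488 to 13991 and 14158 to 20141, with none of 7 called. The tumour cell and fibroblast markers summed to 803 to 2200 and 151 to 889, neutrophil markers to 1731 to 2105 and 1547 to 1940, and T and NK cell markers to 17.5 to 44.7 and 14.2 to 29.6. Cd79a of B cells, Emcn of endothelium, Siglech of plasmacytoid dendritic cells and Lum of fibroblasts stayed under 10 reads in every library. Other markers of the same lists did not. Besides Kdr and Ptprs, Cd79b had 51.5 ± 8.6 in wild-type and 140.0 ± 26.8 in knockout macrophages, and Col3a1 908.1 ± 453.8 and 391.2 ± 253.0.

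The same comparison in monocytes gave no call. By limma 0 of 36 members passed, with 6 at an unadjusted p under 0.05, against 3.32% of all genes called. With voom on recovered reads the count was 0 as well. The authors' deposited table also holds 0 calls among the members, against 9.43% of all genes. The members split evenly, with 18 below and 18 above 0, where 52.8% of all genes were below, and the median difference was 0.00 on the deposited scale.

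Rsad2 came closest. Its 4 knockout monocyte libraries, 21383 to 26218 normalized reads, all lay above the wild-type libraries, 12149 to 20582, and it was the 1 member whose monocyte groups did not overlap, against 11.1% of all genes (4.97% higher). Its mean was 1.38-fold higher in knockout monocytes (log2 difference 0.37 ± 0.11 SE, limma adjusted p = 0.09224), and leaving out wild-type mouse 1 brought it past the threshold (limma adjusted p = 0.03527). The neighbouring Cmpk2 was 1.26-fold higher (limma adjusted p = 0.1674), with wild-type mouse 1 above 2 of the knockout values given above.

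Mx1, whose values are given above, spanned 4299 to 5692 normalized reads in knockout monocytes and 3039 to 4598 in wild type, a difference of 0.27 ± 0.10 (limma adjusted p = 0.1779). Ifi205 also differed by 0.27 with overlapping groups (limma adjusted p = 0.2577). Ifi44 had 594, 526, 436 and 364 normalized reads in wild-type and 426, 393, 352 and 328 in knockout monocytes (-0.24, limma adjusted p = 0.2755). Parp14, a mono-ADP-ribosyltransferase gene, had 3311, 3452, 3485 and 2684 in wild-type monocytes, against 2764, 2786, 1918 and 3052 in knockout monocytes (-0.23, limma adjusted p = 0.2818). The ranges of the 2 genotypes overlapped for each of these genes. In the same libraries the red blood cell markers summed to 1430 to 3568 in wild type and 309 to 1274 in knockout, and the conventional dendritic cell markers to 501 to 1035.0 and 937.5 to 1686. Most of the latter rise was Cd209a (9.1 ± 5.6 against 421.5 ± 335.2) and Flt3 (85.8 ± 66.4 against 205.9 ± 43.7). Xcr1 and Clec9a also had higher means in knockout, and Dpp4 (531.5 ± 138.0 against 505.7 ± 24.8), Zbtb46 and Ccr7 had lower means. Neutrophil markers summed to 8168 to 12179 and 6982 to 9793, with 1 of 6 tested called higher and 0 lower. Retnlg had a higher mean in knockout (31.3 ± 27.3 against 272.3 ± 118.9) and S100a8 a lower one (1782.1 ± 559.9 against 416.9 ± 344.4). Kdr had 152.5 ± 46.8 against 345.5 ± 49.7, with 1 of 3 endothelial markers tested called higher. Itgam had 9447.5 ± 1344.3 against 6106.6 ± 952.0, with 1 of 2 markers of both gates called lower. Mrc1 had 329.4 ± 119.7 against 1382.5 ± 1062.0, with 0 of 8 macrophage markers called. The part of these markers in the values of the members was not tested.

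**Figure D3:**
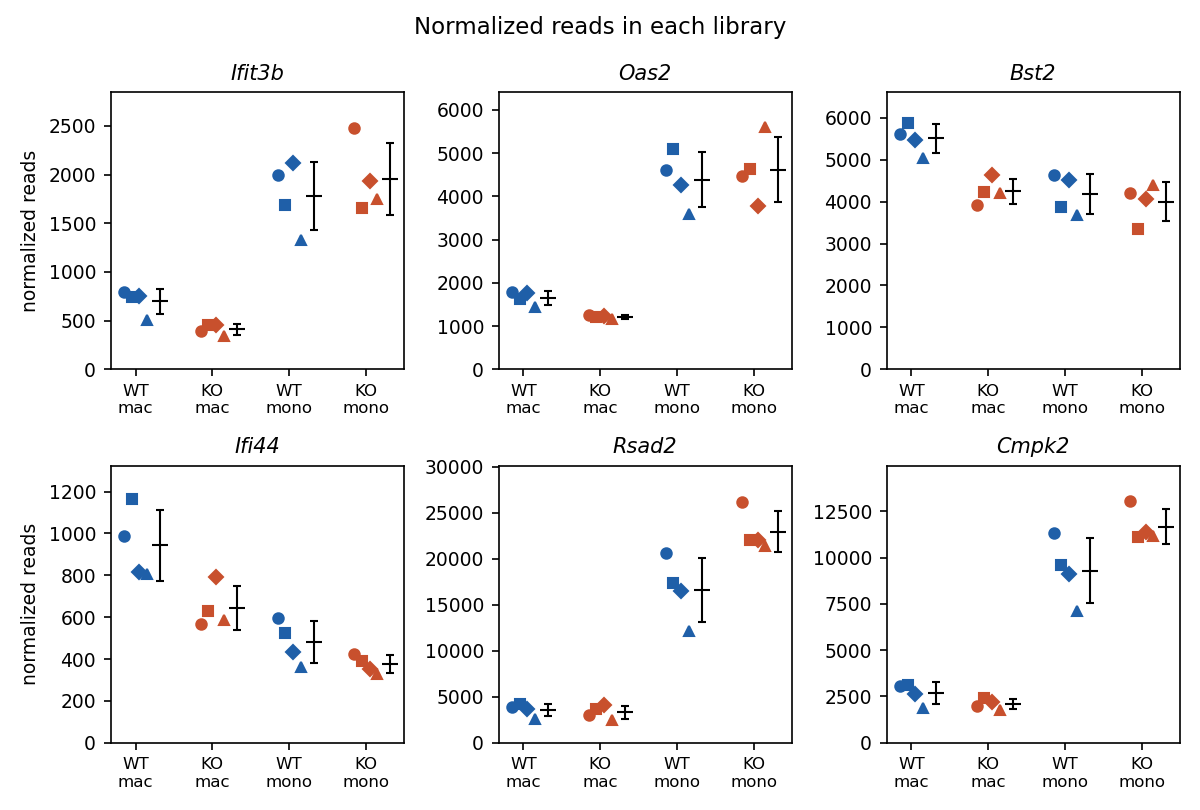
Normalized reads of 6 members in each of the 16 libraries, on linear axes from 0, by group (WT wild type, KO knockout, mac macrophages, mono monocytes). Symbols mark the mouse within a genotype (circle 1 or 6, square 2 or 7, diamond 3 or 8, triangle 4 or 9), and bars are mean ± SD of 4 libraries. Ifit3b, Oas2, Bst2 and Ifi44 part between the genotypes in macrophages, and Rsad2 parts in monocytes.

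Whether the genotype difference itself differed between the cell types was tested with all 16 libraries. Without regard to the mouse, limma called 0 of 36 members, with 17 at an unadjusted p under 0.05, against 0.617% of all genes called, and voom on recovered reads also called 0. Still, 34 of 36 members had a more negative difference in macrophages than in monocytes, as did 48.1% of all genes, and the median was -0.25. A fit added after seeing the data took the mouse as a block, which uses that both libraries came from the same animal. In it 6 members were called, all more negative in macrophages, against 1.91% of all genes called and 0.655% called in that direction. They were Cmpk2, Ifit3b, Ifit3, Rtp4, Zbp1 and Mx2. Of 7 conventional dendritic cell markers tested in this fit 1 was called, Cd209a (-3.13, limma with mouse block, adjusted p = 0.0007367). Of 6 neutrophil markers 1 was called, Retnlg (-1.89, limma with mouse block, adjusted p = 0.003549). No marker of the other cell lists was called, and the part of Cd209a and Retnlg in the result was not tested.

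The block compares the difference between both libraries of a mouse. For Cmpk2 that difference, on the deposited log2 scale, was -1.37, -1.16, -1.28 and -1.34 in wild-type mice 1 to 4 and -1.95, -1.57, -1.70 and -1.88 in knockout mice 6 to 9. The genotypes did not overlap, and the means differed by -0.49 ± 0.08 (limma with mouse block, adjusted p = 0.008454; without the block, adjusted p = 0.2049). For Ifit3b it was -0.97, -0.85, -1.08 and -0.98 against -1.89, -1.31, -1.48 and -1.64, which gave -0.61 ± 0.11 (limma with mouse block, adjusted p = 0.01203; without, 0.1339). Cmpk2 and Ifit3b reached this in different ways, since Cmpk2 was both lower in knockout macrophages (-0.23) and higher in knockout monocytes (0.26) without either passing, and most of the Ifit3b difference lay in macrophages.

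Ifit3 gave -0.97, -0.80, -1.16 and -1.06 in wild-type mice, against -1.67, -1.28, -1.49 and -1.59 in knockout mice (limma with mouse block, adjusted p = 0.01627). Rtp4 gave -0.74, -0.84, -0.91 and -0.98 against -1.40, -1.02, -1.27 and -1.27 (limma with mouse block, adjusted p = 0.03625). For both genes every knockout mouse lay below every wild-type mouse. In monocytes Ifit3b had 1995, 1688, 2116 and 1329 normalized reads in wild-type mice, against 2483, 1658, 1936 and 1749 in knockout mice. Ifit3 had 9050.2, 7339, 9420.2 and 6376 there, against 10605, 7710.5, 9443 and 8533, and Rtp4 had 5856, 5683, 5616 and 5274, against 6624, 5247, 6402 and 5574. The genotypes overlapped in monocytes for all 3. Zbp1, a sensor of left-handed nucleic acids, and Mx2 were called with adjusted p = 0.04538 and 0.04751 in the same limma fit. Oas2, the remaining one of the 5 members with the smallest p without the block, had 4619, 5092, 4256 and 3589.6 normalized reads in wild-type monocytes and 4463, 4633, 3772 and 5609 in knockout monocytes. Its difference between both libraries of a mouse was -0.99, -1.18, -0.92 and -0.94 in wild type, against -1.30, -1.37, -1.14 and -1.63 in knockout. These overlapped between wild-type mouse 2 and knockout mouse 8, and the means differed by -0.35 (limma adjusted p = 0.2179 without the block).

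In all, the difference between both libraries of a mouse was lower in every knockout mouse than in every wild-type mouse for 13 of 36 members and higher for none. Among all genes it did not overlap for 8.27%, and was lower in knockout for 3.38%. Leaving out both libraries of a mouse, the block called from 2 members (without mouse 1 or mouse 9) to 10 (without mouse 7 or mouse 8), and 3 without mouse 2, 3, 4 or 6. The share of all genes called moved as well. It was 1.1% and 1.18% without mouse 1 and mouse 9, 2% and 1.34% without mouse 7 and mouse 8, and 0.909% to 1.72% without mouse 2, 3, 4 or 6. Cmpk2 and Ifit3b were called in each of these 8 fits.

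**Figure D4:**
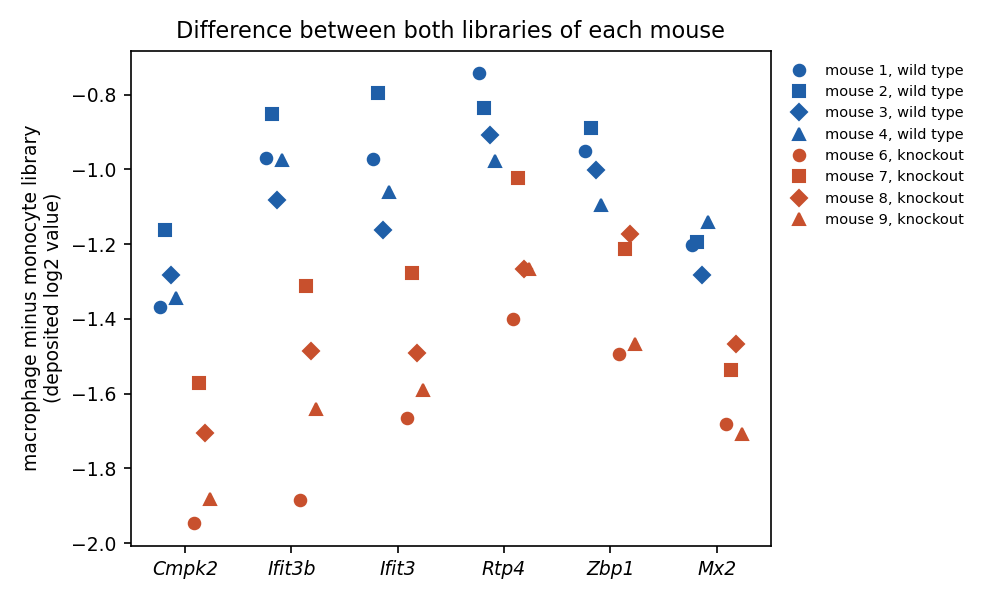
Macrophage minus monocyte library of the same mouse, in deposited log2 value, for the 6 members called with the mouse as a block, in wild-type mice 1 to 4 (blue) and knockout mice 6 to 9 (orange). Every orange symbol lies below every blue symbol of its gene, as for Cmpk2 with -1.95 to -1.57 against -1.37 to -1.16.

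The mean over the members was taken per library as a summary of level. On the deposited log2 scale, over all 38 rows, it was 10.45, 10.43, 10.37 and 10.17 in the macrophages of wild-type mice 1 to 4 and 10.09, 10.16, 10.23 and 10.04 in those of knockout mice 6 to 9. Knockout mouse 8 was above wild-type mouse 4, so the genotypes overlapped by this library alone, and the means differed by -0.22. In monocytes it was 11.33, 11.23, 11.22 and 10.996 in wild-type mice 1 to 4, and 11.32, 11.14, 11.19 and 11.23 in knockout mice 6 to 9, a difference of 0.02 with full overlap.

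Between the libraries of a mouse the mean differed by -0.88, -0.80, -0.85 and -0.83 in wild-type mice and by -1.23, -0.98, -0.96 and -1.19 in knockout mice, without overlap. Wild-type mouse 4, low in both cell types, had the same step between them as mice 1 to 3. Summed over the members, normalized reads in macrophages were 69999 to 93902 (wild type) and 61290.0 to 75981 (knockout), and in monocytes 170487 to 236093 and 205299 to 239083. They took 0.272% to 0.439% of the recovered reads in macrophage libraries and 0.7% to 1.04% in monocyte libraries.

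**Figure D5:**
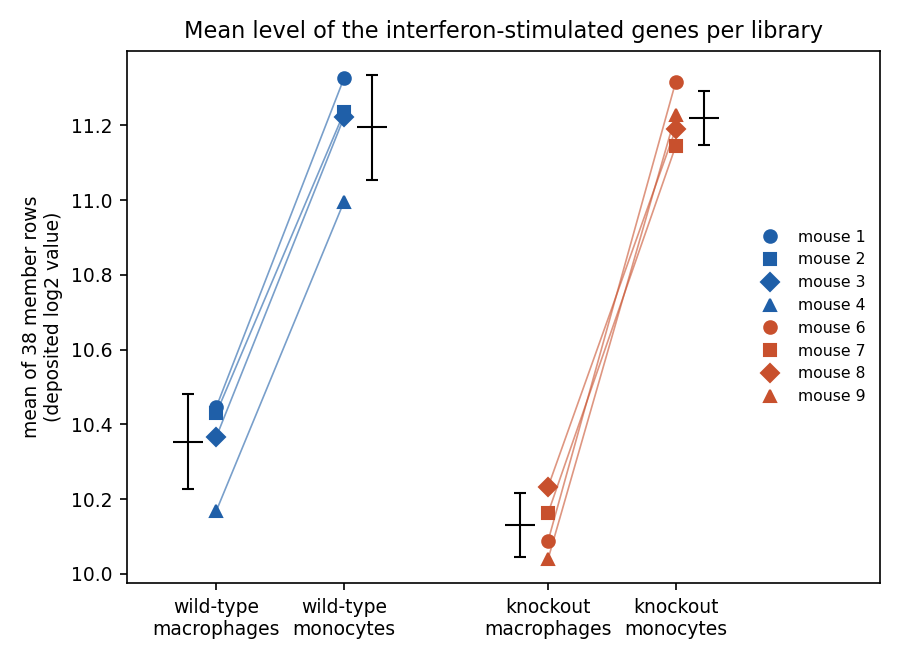
Mean deposited log2 value over the 38 member rows in each library, with a line joining both libraries of a mouse (blue wild type, orange knockout). Horizontal bars are group means ± SD of 4 libraries. The lowest monocyte library (10.996) lies above the highest macrophage library (10.45), and the knockout lines are steeper than the wild-type lines.

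The rest of the pathway was described from lists given here by counts and medians. Type I, II and III interferon genes themselves were hardly detected. Of 21 ligand genes 7 had a row, none passed the filter, and the 2 with a base mean of at least 1 summed to 0.8 to 19.3 normalized reads per library. None of the 10 receptor and signal transducer genes tested was called between genotypes in either cell type. Irf9 differed by 0.01 in macrophages and by 0.14 in monocytes, without passing the test. Between cell types 7 of these 10 were lower in macrophages of wild-type mice and 1 was higher, where 31.7% of all genes were lower and 31.7% higher, with Jak2 at -1.36 and Ifnar1 at 0.25.

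Of 8 transcription factor genes, Irf7 was lower in knockout macrophages, where 3.13% of all genes were called lower. Irf7 amplifies interferon production and is itself induced by interferon. It had 8374 to 12650 normalized reads in wild-type and 6176 to 7754 in knockout macrophages, without overlap (log2 difference -0.42 ± 0.09 SE, limma adjusted p = 0.02079). In monocytes 2 others were higher in knockout, Irf1 (4088 to 6038 against 6819 to 12006 normalized reads, 0.60 ± 0.13, limma adjusted p = 0.03353) and Batf2 (242 to 374 against 457 to 852, 0.78 ± 0.15, limma adjusted p = 0.01546). Both are also strong targets of interferon gamma. Socs1, a feedback inhibitor of the kinases, was the 1 of 8 negative regulators called there, and was higher in knockout monocytes (534.0 to 719 against 792 to 1578, limma adjusted p = 0.0332). Of all genes 3.32% were called in monocytes.

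Of 11 nucleic acid sensing genes tested, Tlr7, a receptor for single-stranded RNA, was lower in knockout macrophages (-0.29, limma adjusted p = 0.02359). Among 59 tested other interferon-stimulated genes, 6 were lower and none higher in knockout macrophages, with a median of -0.11. Of all genes 3.13% were called lower there and 2.57% higher. The 4 with the largest differences were Apol9b (-0.71), Trim30d (-0.38), Lgals3bp (-0.37) and Ifi27l2a (-0.28). Apol9b was low, at 39.5 ± 11.7 normalized reads in wild-type and 15.8 ± 3.7 in knockout macrophages, and how far it or Trim30d shares sequence with other genes of its family was not measured. In monocytes 1 of the 59 was called, where 3.32% of all genes were. This was Trim30d, again lower (-0.55, limma adjusted p = 0.003938), and the median of the 59 was 0.03.

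Between cell types 49 of these 59 genes were lower in macrophages and 4 higher in either genotype, where 31.7% of all genes were called lower in wild type and 29.6% in knockout, with medians of -0.63 in wild type and -0.69 in knockout. Ifitm6 (-3.65) and Slfn4 (-3.38) fell farthest in wild type, and Ifitm1 and Ifit1bl1 were next at -2.84 and -2.30. For a difference of the knockout effects between cell types no gene of the pathway lists was called without the block. With the mouse as a block, a fit added after seeing the data, 4 were called, against the 1.91% of all genes given above. Irf7 (-0.45, limma adjusted p = 0.02949) and Batf2 (-0.70, limma adjusted p = 0.01359), 2 of the 8 transcription factor genes tested, were more negative in macrophages. Of the 59 other interferon-stimulated genes, Daxx was more negative (-0.32, limma adjusted p = 0.0488) and Ifitm1 more positive (0.85, limma adjusted p = 0.003637).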

How the data were processed

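Per the labels' protocols, RNA of sorted cells (5 ng each) was made into libraries with the SMART-Seq v4 kit, which keeps no strand information, so a gene and its antisense partner cannot be told apart. The submitters' processing notes name STAR 2.7.2b, bcl2fastq 2.19.0.316, the build GRCm38 and DESeq2. What each did and which annotation was used is not stated there. The authors deposited log2 values for 30819 genes in 16 libraries, which follow a regularized logarithm that draws low values together. Per the file headers, the authors also deposited a table per cell type with a base mean (a signal over all libraries), a log2 fold change of wild type over knockout (turned round here), its statistic (a score) and p-values.

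Read numbers were worked back from the log2 values and base means for the 20443 genes whose base mean reached 1. The result was whole to within 0.05 reads for 73.6% of values, and the gene's mean came back to within 1% for 99.9% of genes. Above 1000 reads the share was 21.5%, with a median distance of 0.0057% of the value.

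Limma 3.58.1 (R 4.3.3) was fitted to the deposited log2 values with trend and robust estimation, on the 8 libraries of a comparison or all 16. The filter asked for a linear value of 10 or more in 4 or more libraries of the fit. A call is a p under 0.05 after Benjamini-Hochberg adjustment over every gene tested. The scripts were tested on simulated data. Alternatives were other filters, scalings, scales and tools, fits without 1 library, and the mouse as a block. The mouse numbers pair libraries because both cell types came from the same animals, and the correlation of deviations between both libraries of a mouse was 0.0306 to 0.417. It was 0.417 in mouse 1 and at most 0.211 in the others. For mice 3 and 6 the best match was not the library with the same number.

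Values in every library are given for the 6 called members with the largest difference per comparison (5 for the difference of effects) and a mean of at least 50 normalized reads in the higher group, or, where fewer were called, those with the smallest p. The members and lists were chosen with earlier results of these data known. P-values of the genotype comparisons within a cell type measure the spread between these mice. Fits across both cell types without the block treat both libraries of a mouse as independent. With the block, p-values measure the spread of the difference between both libraries of a mouse. Other columns of samples numbered 0. Python 3.11.15 (pandas 2.3.3, matplotlib 3.10.9) was used for the summaries.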

Additional observations from a re-analysis of the deposited data

Results flagged for a closer look

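Of 64 sets of 4 libraries (15 members and the mean over the members, in each group), 5 held 1 library far from the other 3, where chance gives about 1 in 20. Wild-type mouse 4 was low for Ifit3b in macrophages (505 normalized reads) and for Oas3 in monocytes (3791). Knockout mouse 6 was high in monocytes for Cmpk2 (13054), Ifit1 (11583) and Rsad2 (26218).

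With the mouse as a block, a fit added after seeing the data, limma called 6 members for a knockout difference in macrophages minus that in monocytes. It was -0.49 for Cmpk2, -0.61 for Ifit3b, -0.51 for Ifit3, -0.37 for Rtp4, -0.35 for Zbp1 and -0.39 for Mx2, each on the deposited log2 scale.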

How the results depend on the processing

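In knockout against wild-type macrophages 12 members were called (5.7% of all genes). The count was 4 without a filter on low values (1.65% of all genes) and 3 without trend and robust estimation (4.17%). With 1 replicate left out it was 3 to 22 (3.67% to 5.26%). The other settings gave 9 to 16. In monocytes it was 0 throughout except 1 without wild-type replicate 1, a range of 0 to 1. Between cell types it was 35 to 36 in wild type, where Phf11d lost its call in 4 fits with 1 library left out, and 35 in knockout. For the difference of effects it was 0, but 6 with the replicate block (1.91% of all genes called). With the block and 1 mouse left out in turn it was 2 to 10 (0.909% to 2% of all genes). With 1 library left out it was 0 to 1 (1 without the macrophage library of wild-type mouse 4). The block for the difference of effects and the fits without mice were chosen after seeing the data. The block changed no call between cell types. The mean over the 36 tested members, on log2(normalized reads + 1), differed by -0.344 between genotypes in macrophages. Between cell types it differed by -1.23 in wild type and -1.61 in knockout. Over the replicates left out, the genotype difference in monocytes of the mean over all 38 rows ran from -0.04 to 0.07 on the deposited scale. No called member changed sign under any setting tried. The cause of these changes was not tested. An edgeR fit on recovered reads was planned and not run.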
